A study of Homo sapiens with 4 samples.

Results

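CDK4 and 9 genes that lie around it on the long arm of chromosome 12 were followed in NGP cells, an established human neuroblastoma line. The 10 genes are OS9, TSPAN31, CDK4, MARCH9, CYP27B1, METTL1, EEF1AKMT3, TSFM, AVIL and CTDSP2, in chromosomal order, and they were selected on their summed counts in these same data, as a run of neighbouring genes with high counts. Their levels are therefore a description. All 10 were found among the 25693 human genes of the deposited table, and all 10 passed the filter on low counts. Cells had been synchronised by withdrawing serum and then received Nutlin-3, an inhibitor of the binding of MDM2 to p53, or its solvent ethanol, for 24 h. RNA was captured with the ddSeq droplet device and a 3' kit, in 2 libraries per treatment with ERCC spike-in RNAs diluted 1000-fold or 10000-fold. All libraries share the line and the synchronisation. The table's columns name the treatment and not the library, so each treatment is 1 pool of 250 columns. There is no replicate, and no test between treatments could be made.

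CDK4 is the kinase that, bound to a D cyclin, phosphorylates the retinoblastoma protein RB and so lets E2F factors turn on genes for S phase. INK4 and CIP/KIP proteins hold it in check, and p53 acts on it through the CIP/KIP inhibitor p21, the product of CDKN1A. The genes next to CDK4 have unrelated functions and are known as companions of CDK4 in amplified stretches of chromosome 12 in several tumour types. NGP is known for amplified MYCN and for amplified stretches of chromosome 12 that include CDK4 and MDM2. Gene copy number was not analysed here.

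The promoter of CDK4 is shown because it was the one member promoter with the E-box CACGTG, the letters preferred by MYC proteins, and MYCN was among the most abundant RNAs of these cells. CACGTG reads the same on both strands. In the 300 bases from 250 before to 50 after the RefSeq start of CDK4 (GRCh38.p14), it occurred 3 times, beginning 216, 196 and 101 bases before the start. The 2 distal copies fall in chr12:57752499-57752528 and the proximal copy in chr12:57752394-57752423, both on the minus strand, and capitals mark each copy. Of their bases, 23 and 30 lie in annotated exons of other CDK4 transcripts.
CDK4 distal pair: gtCACGTGtgatagcaacagatCACGTGgc
CDK4 proximal: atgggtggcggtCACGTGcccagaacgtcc
Of all 35116 promoter windows of this length in the RefSeq table, 7.26% held CACGTG at least once and 33 windows, 0.0940%, held it at least 3 times. The table had windows for 7 of the 10 genes, and none of the other 6 windows (OS9, TSPAN31, MARCH9, TSFM, AVIL, CTDSP2) held it. The motif CCAAT, searched on both strands, was found 4 times each in the OS9 and TSPAN31 windows and once in that of AVIL, against 34.6% of all windows with at least 1 copy. GGGCGG, also searched on both strands, was found 7 times at MARCH9, 3 times at CDK4 and once each at OS9 and CTDSP2, against 45.0% of all windows. The 22 genes past the count filter with at least 3 copies of CACGTG had a median of 86.0 counts in ethanol, against 102.0 for the 9740 filtered genes with a promoter entry. The 1274 filtered genes with at least 1 copy had a median of 109.0, on the other side of that value. A match to letters is a description and shows no binding.

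The ethanol pool held 1342134 human counts and the Nutlin-3 pool 1301232. Columns fell into large and small classes at a total of 4000 counts, with 113 large and 137 small columns in each treatment. The same column name occurred in both treatments for 219 of the 250 columns, or 87.6%, and all 113 large columns of one treatment had a large namesake in the other. Of all nonzero values 92.8% were equal to 1. In the large columns 3600 genes in ethanol and 3482 in Nutlin-3, 24.3% and 23.5% of the 14830 filtered genes, had a summed count within 10% of 113, which is 1 count per column. The median ratio of variance to mean of such genes over columns was 0.115 and 0.125, where Poisson counts would give a ratio near 1. A level close to 113 in the large columns therefore does not rank a gene against the many others at that height, and the small columns are given beside it. The sources used here do not give whether reads were collapsed by molecular tags. All intervals below are 95% exact intervals for counting error only.

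The levels of the 10 genes were set against all genes because the segment had been singled out as highly expressed. The median member had 196.5 and 196.0 counts in the ethanol and Nutlin-3 pools, against 87.0 and 84.0 for the median filtered gene. The members' median percentile among filtered genes was 96.3 in ethanol and 97.1 in Nutlin-3. Of the 10 genes, 8 in ethanol and 7 in Nutlin-3 exceeded the height of 1 count per large column by more than 10%, as did 12.7% and 10.5% of filtered genes. OS9 and AVIL stayed within 10% of that height in both treatments, and CYP27B1 did so in Nutlin-3.

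CDK4 (ENSG00000135446, chromosome 12, 57747727 to 57756013, minus strand) had 608 counts in the ethanol pool (561 to 658) and 516 in the Nutlin-3 pool (472 to 563). These were 453 and 397 CPM, a count relative to the human total of its pool. Among filtered genes it ranked 26 with ethanol and 46 with Nutlin-3, and its interval lay above that of every other member in both pools. Among the genes nearest to it in mean CPM, RPS12 and RPS6 stood just above and RPS15, RPLP2 and RPL13 just below, all of them genes of ribosomal proteins. Their counts ran from 535 to 550 in ethanol and from 538 to 626 in Nutlin-3, so CDK4 was above these 5 genes in ethanol and below them in Nutlin-3. Its interval overlapped those of RPS12, RPS15, RPLP2, RPS6 and RPL13 in ethanol. In Nutlin-3 it overlapped those of RPS15, RPLP2 and RPL13 and not those of RPS12 or RPS6. The genes most like CDK4 over 4 sums (large and small columns of both treatments) were RPLP2 and MTND1P23, a pseudogene of a mitochondrial gene, each with a largest difference of 0.20 in log2 CPM, and RPS15 with 0.21. MTND1P23 and the ribosomal protein genes have near-identical copies that could share reads, so their levels are uncertain.

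TSFM (ENSG00000123297, 57782589 to 57808071, plus strand) encodes the mitochondrial elongation factor that recharges TUFM, and it was the second most abundant member. It had 286 counts in the ethanol pool (254 to 321) and 274 in the Nutlin-3 pool (243 to 308). METTL1 (ENSG00000037897, 57768471 to 57772793, minus strand), which with WDR4 methylates guanosine in tRNA, had 237 counts in the ethanol pool (208 to 269) and 213 in the Nutlin-3 pool (185 to 244). CTDSP2 (ENSG00000175215, 57819927 to 57846739, minus strand), a phosphatase of the RNA polymerase II tail, had 231 in ethanol (202 to 263) and 258 in Nutlin-3 (227 to 291). In ethanol the intervals of these 3 genes overlapped each other, and METTL1 and CTDSP2 exchanged places between the pools.

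TSPAN31 (ENSG00000135452, 57738013 to 57750211, plus strand), a membrane protein of the tetraspanin family, had 205 counts in the ethanol pool (178 to 235) and 198 in the Nutlin-3 pool (171 to 228). EEF1AKMT3 (ENSG00000123427, 57771492 to 57782541, plus strand), a methyltransferase for a lysine of the elongation factor EEF1A, had 188 (162 to 217) and 194 (168 to 223). MARCH9 (ENSG00000139266, 57755098 to 57760407, plus strand), a membrane-bound ubiquitin ligase, had 173 (148 to 201) and 180 (155 to 208). The 3 Poisson intervals overlapped in both pools and leave the order of these genes open. In the large columns the ratios of variance to mean of the 3 genes ran from 0.189 (MARCH9, Nutlin-3) to 0.315 (TSPAN31, Nutlin-3). Such ratios lie below the value near 1 that the intervals assume.

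CYP27B1 (ENSG00000111012, 57762334 to 57768986, minus strand), the hydroxylase that makes active vitamin D and is known from kidney, had 144 counts in each pool (121 to 170). OS9 (ENSG00000135506, 57693955 to 57721557, plus strand), a lectin of protein degradation from the endoplasmic reticulum, had 125 in ethanol (104 to 149) and 124 in Nutlin-3 (103 to 148). AVIL (ENSG00000135407, 57797376 to 57818704, minus strand), an actin-binding protein of the villin family known from sensory neurons, had 117 (96.8 to 140) and 120 (99.5 to 143). These 3 were the lowest members in both pools and their intervals overlapped.

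**Figure D1:**
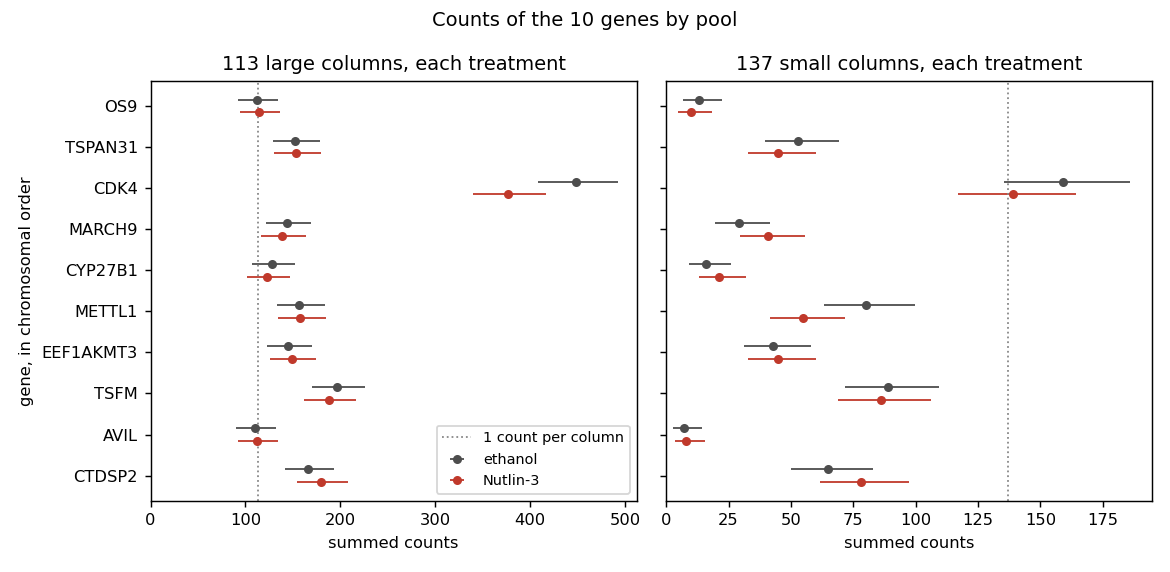
Summed counts (x axis) of the 10 genes (y axis, chromosomal order) in the large and small columns, with ethanol in grey and Nutlin-3 in red. Points are sums with 95% Poisson intervals and the dotted line marks 1 count per column; in the large columns OS9 and AVIL lie at that line, while CDK4 lies at 449 and 377.

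The small columns spread the members further apart. CDK4 had 159 counts there in ethanol and 139 in Nutlin-3, TSFM 89 and 86, METTL1 80 and 55, and CTDSP2 65 and 78. CDK4 thus lay near 1 count per small column, which is 137 counts. AVIL had 7 and 8, OS9 13 and 10, and CYP27B1 16 and 21, against a median filtered gene of 4.0 in both. From AVIL to CDK4 the ethanol counts thus ran from 7 to 159 in the small columns and from 110 to 449 in the large ones. The members' median percentile in ethanol was 96.2 in large and 96.3 in small columns, but the low members differed, with AVIL at 70.3 and 60.5, CYP27B1 at 89.6 and 81.2 and MARCH9 at 95.5 and 91.6.

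Levels per kilobase of annotated exon gave another order below CDK4. CDK4 had 143 CPM per kilobase in ethanol and 125 in Nutlin-3, TSFM 68.9 and 68.1, METTL1 67.4 and 62.5, and EEF1AKMT3 44.1 and 47.0. MARCH9 (32.2 and 34.5), CTDSP2 (31.6 and 36.4), CYP27B1 (31.2 and 32.2) and TSPAN31 (28.4 and 28.3) followed in these units, then OS9 (18.0 and 18.4) and AVIL (14.8 and 15.7). On this scale the percentile of AVIL was 55.8 in ethanol and that of CDK4 98.7, and the members' median was 83.5. Reads of a 3' kit do not grow with transcript length, so this scale lowers genes with long exons such as AVIL, with 5889 exon bases, relative to METTL1, with 2621.

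Several members share bases with a neighbour in the GENCODE 29 annotation, and whether the authors' counting used strand is not given in the sources used here. TSPAN31 and CDK4 run towards each other, and their genes overlap from 57747727 to 57750211. They share 1369 exon bases, which include all 891 bases of the last exon block of CDK4, where a 3' kit reads. Reads of CDK4 and TSPAN31 from there cannot be told apart without strand, so the levels of both genes are uncertain. METTL1 and EEF1AKMT3, on opposite strands, share 506 exon bases at their starts. METTL1 and CYP27B1, on the same strand, share 107, all within the last exon block of METTL1. TSFM and AVIL, on opposite strands, share 303, of which 212 lie in the last exon block of AVIL. TSFM also shares 578 exon bases, and EEF1AKMT3 shares 101, with AC025165.3 on the same strand, which was not analysed here. OS9 shares 699 with the antisense gene AC025165.2, which had 8 counts in the ethanol pool and 7 in the Nutlin-3 pool.

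The extent of the highly expressed stretch was examined in the order of protein-coding genes, with 10 genes on each side of the segment. The 10 genes before OS9 had a median of 127.0 counts with ethanol and 113.5 with Nutlin-3, and the 10 after CTDSP2 a median of 107.0 and 107.5. Those before start at -272 to -124 kb from the start coordinate of CDK4, and those after at 158 to 6097 kb. The medians of the flanks thus cover unlike distances and do not show where the stretch ends. In the small columns the medians in ethanol were 9.0 before, 48.0 for the members and 5.5 after. Before the segment no coding gene reached the median member in ethanol, and the 10 genes there ran from 16 to 163 counts. B4GALNT1, a ganglioside synthase, had 123 counts in the ethanol pool and 110 in the Nutlin-3 pool, SLC26A10 84 and 97, ARHGEF25 16 and 17, DTX3 132 and 137, and PIP4K2C 91 and 91. OS9 had 125 counts in ethanol and so lay between B4GALNT1 and DTX3.

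AGAP2, a GTPase-activating protein known from neurons, lies between OS9 and TSPAN31 and was low, with 53 counts in the ethanol pool and 82 in the Nutlin-3 pool, all of them in large columns. Beyond CTDSP2 single genes were also high, although the median of the 10 genes there was 107.0 counts in ethanol. ATP23, a mitochondrial protease, had 219 counts in the ethanol pool and 206 in the Nutlin-3 pool, with 60 and 53 in the small columns, and so stood between CTDSP2 and TSPAN31 in ethanol. LRIG3 had 151 and 142, and SLC16A7 212 and 195, although SLC16A7 starts 1848 kb from the start coordinate of CDK4. Next came FAM19A2 with 5 and 28 counts and USP15 with 96 and 103. Of the 20 flanking genes, 2 (ATP23 and SLC16A7) exceeded the median member in ethanol, and both lie after the segment. High members were not contiguous either, since AVIL lies between TSFM and CTDSP2 and had 117 counts in ethanol against their 286 and 231.

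**Figure D2:**
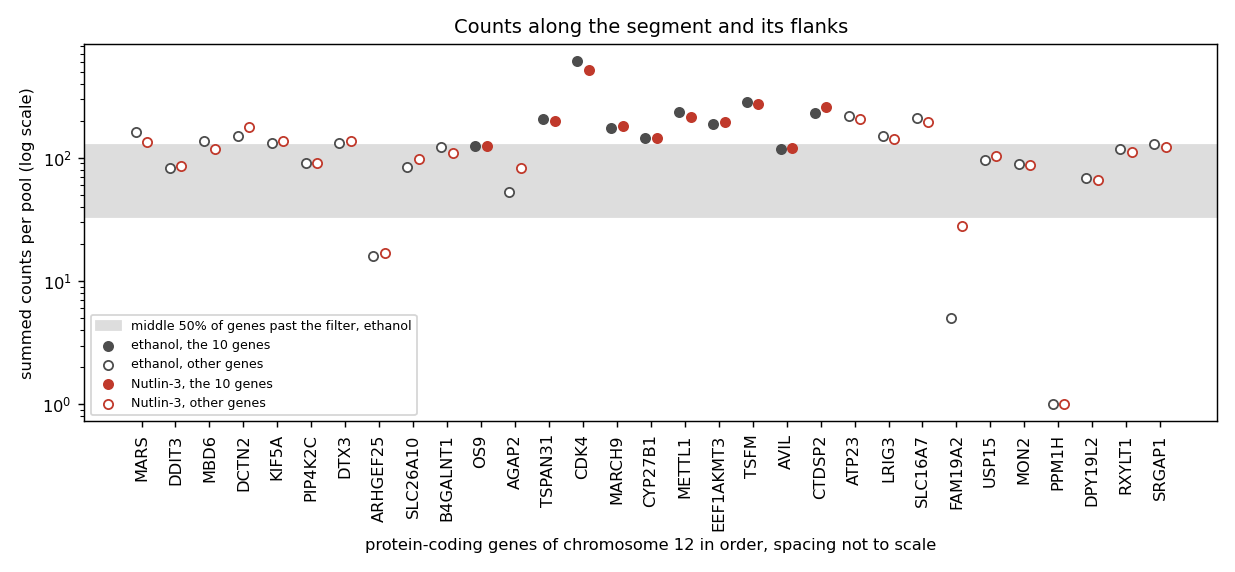
Summed counts per pool (y axis, log scale) of protein-coding genes of chromosome 12 in order (x axis, not to scale), with the 10 genes filled and the others open, ethanol in grey and Nutlin-3 in red. The shaded band is the middle 50% of filtered genes in ethanol; CDK4 stands highest, AGAP2 lies within the band between OS9 and TSPAN31, and ATP23 lies above it beyond CTDSP2.

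The contrast of Nutlin-3 with ethanol asked whether the 10 genes moved with p53 activation. A gene was counted as lower or higher past a fold limit of 0.32 on the log2 scale, a ratio of 5 to 4. By that limit 0 of the 10 members were lower, against 12.4% of the 14830 filtered genes, and 0 were higher, against 14.9%. Among the 8844 filtered genes averaging 50 CPM or more, a level that all 10 members reached, the shares were 3.82% lower and 3.74% higher, so a count of 0 among 10 is near the background. At 1.5-fold 0 members were lower, against 5.85% of filtered genes, and 0 higher, against 7.81%. In the large columns 0 members passed the fold limit, against 11.9% of filtered genes lower and 14.2% higher. There OS9 held exactly 1 count in 102 ethanol and 100 Nutlin-3 columns of 113, CYP27B1 in 98 and 102, AVIL in 100 and 96. The large columns hold most counts of each pool, so a fold near 0 says little about such genes. The members' median log2 fold change was 0.04, against -0.0017 for all filtered genes, with 4 members below 0 and 6 above.

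CDK4 was the one member whose counting interval lay wholly on one side of 0. Its log2 fold change was -0.19 (-0.36 to -0.02), which puts Nutlin-3 at 0.876 of ethanol. Among genes of at least 50 CPM, 2.2% had an interval wholly lower and 2.11% wholly higher, and of the 86 genes of at least 300 CPM, 16.3% had one wholly lower and 34.9% wholly higher. Large columns gave -0.21 (-0.41 to -0.01). Small columns gave -0.06 (-0.40 to 0.28), an interval that included 0. There CDK4 itself held exactly 1 count in 113 ethanol and 109 Nutlin-3 columns of 137. A value near 0 in the small columns is therefore no separate sign of no change. In the 31 columns of each treatment whose names occur in 1 treatment alone, CDK4 had 32 counts in the ethanol pool and 29 in the Nutlin-3 pool, a log2 fold change of -0.36 (-1.14 to 0.41). The interval takes counts as independent and holds no variation between cultures, so no change of CDK4 between treatments is established by it.

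For the other 9 genes the interval included 0. CTDSP2 had the largest value, 0.20 (-0.06 to 0.47), followed by MARCH9 with 0.10 (-0.21 to 0.41). METTL1 was at -0.11 (-0.38 to 0.16), from 237 against 213 counts. TSPAN31, which shares part of its last exon block with CDK4, was at -0.0045 (-0.29 to 0.28), and TSFM at -0.02 (-0.26 to 0.23). In the small columns, where 9 of the members passed the filter, 1 member was lower past the fold limit, against 27.1% of filtered genes, and 3 were higher, against 27.4%. The lower one was METTL1 at -0.40 (-0.93 to 0.11), and the higher ones were MARCH9 at 0.63 (-0.09 to 1.37), CYP27B1 at 0.51 (-0.48 to 1.56) and CTDSP2 at 0.39 (-0.10 to 0.89). All 4 intervals included 0. AGAP2, the gene inside the segment that is no member, had 0.67 (0.16 to 1.20).

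**Figure D3:**
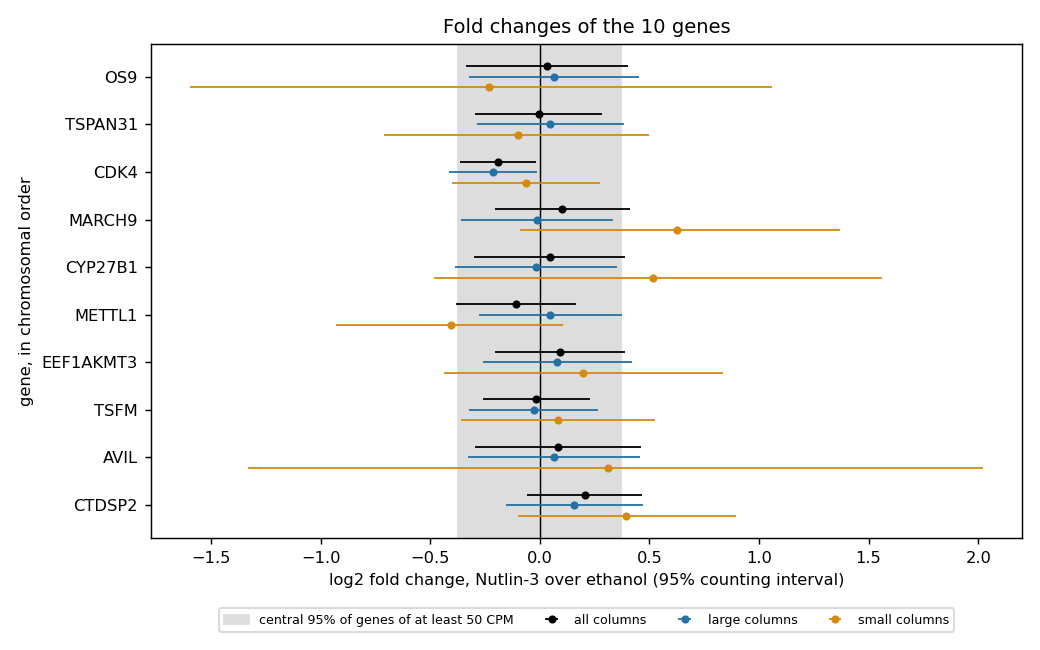
Log2 ratio of the Nutlin-3 to the ethanol pool (x axis) for the 10 genes (y axis) in all, large and small columns, with 95% counting intervals. The shaded band holds the central 95% of genes of at least 50 CPM; all 10 values over all columns lie inside it, and those of the small columns have the widest intervals.

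With ERCC counts as the library size every gene was lower than on human counts, with a median of all filtered genes at -0.47 and of the members at -0.43. CDK4 was at -0.66 on that scale. Relative to the median of all genes, the members' median stayed at 0.04. Each pool mixes both dilutions of the spike-in in unknown proportion, so that a difference in mixture and one in RNA content cannot be told apart.

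Counts in single columns showed how evenly CDK4 was spread. In ethanol all 113 large columns had at least 1 CDK4 count, with a median of 4.0, and 105 had 2 or more. In Nutlin-3 all 113 had at least 1, with a median of 3.0, and 104 had 2 or more. In the small columns 113 of 137 in ethanol and 109 of 137 in Nutlin-3 had exactly 1 count, while 3 and 15 had none. The ratio of variance to mean over small columns was 0.218 and 0.304, below the value near 1 of Poisson counts. All cells are of 1 line, so no cell type without CDK4 could show how many columns free RNA alone would fill.

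One column of each treatment, under the same name, stood far from the others with 29 CDK4 counts in the ethanol pool and 22 in the Nutlin-3 pool, where the next highest columns had 9 and 7. These columns had 2.38 and 2.29 counts per detected gene, against at most 1.44 and 1.43 in any other. Without them CDK4 had 579 and 494 counts, with a log2 fold change of -0.18 (-0.36 to -0.01), an alternative chosen after seeing the data.

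**Figure D4:**
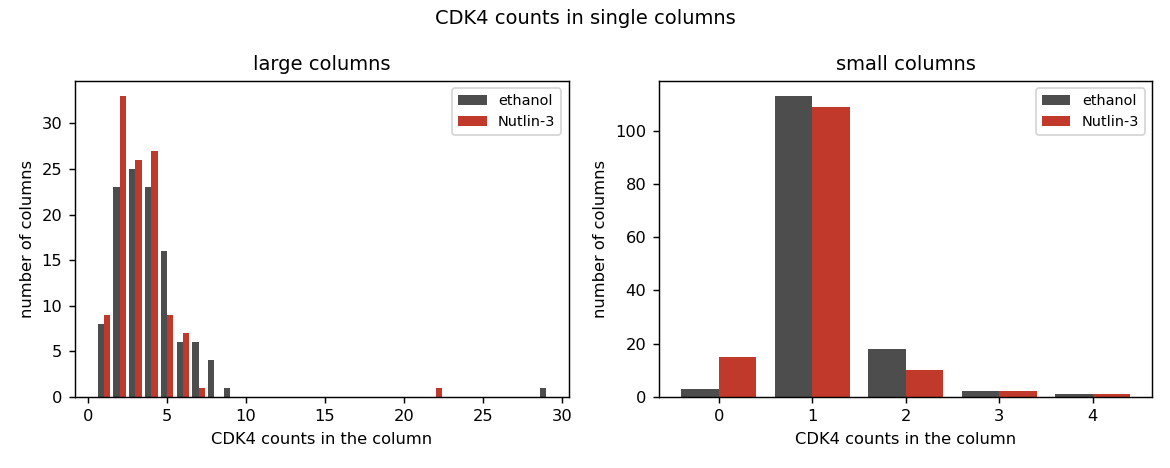
Number of columns (y axis) by their CDK4 count (x axis) in the large and small columns, with ethanol in grey and Nutlin-3 in red. Most small columns hold exactly 1 count, the median large column holds 4.0 in ethanol and 3.0 in Nutlin-3, and 1 column per treatment lies apart at 29 and 22.

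At a common depth of 700 counts per column, 194 ethanol and 187 Nutlin-3 columns remained, and 56 and 63 were too shallow. CDK4 was then seen in 39.7% of ethanol columns (32.8 to 46.9) and 30.5% of Nutlin-3 columns (24.0 to 37.6). The intervals overlapped. Unthinned, 98.8% and 94.0% of the 250 columns held CDK4. Within each class they overlapped as well, at 23.9% and 21.2% in the large columns and 61.7% and 44.6% in the small ones. TSFM was seen in 23.2% and 20.9% of thinned columns, METTL1 in 19.6% and 16.0%, and CTDSP2 in 18.6% and 20.9%. AVIL was the least frequent, in 3.09% and 5.35%.

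Genes related to the members by function were taken from lists drawn up with earlier results of these data known. Of the D cyclins, CDK6 and RB proteins, 7 of 7 passed the filter. Of these, 1 (RBL1) was lower past the fold limit, against 12.4% of filtered genes, and 1 (CCND2) higher, against 14.9%. CCND1, the main D cyclin here, had 228 counts in the ethanol pool and 236 in the Nutlin-3 pool, and CDK6, the paralogue of CDK4, had 214 and 232. Neither value differed beyond its counting interval, at 0.10 (-0.17 to 0.36) and 0.16 (-0.11 to 0.44). CCND2 had 3 and 17 counts, at 2.37 (0.76 to 4.96). RB1 had 128 and 111, and its relative RBL1 85 and 60, at -0.45 (-0.96 to 0.04).

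Of 7 CDK inhibitors 1 was higher and 2 (CDKN2C and CDKN2D) were lower past the fold limit, against 14.9% of filtered genes higher and 12.4% lower. CDKN1A, the gene of p21, was the higher one, with 70 counts in the ethanol pool and 188 in the Nutlin-3 pool and a value of 1.46 (1.07 to 1.89) on the log2 scale. CDKN2A, which encodes the INK4 protein p16, had 162 and 153 counts and a value of -0.04 (-0.37 to 0.29). CDKN2D, another INK4 gene, had 94 and 67 and a value of -0.44 (-0.92 to 0.02), and CDKN1C 103 and 114. CDKN2C, also an INK4 gene, had 48 and 22, at -1.06 (-1.88 to -0.32). Of 6 genes for CDK4 chaperones and the CDK-activating kinase, 1 was lower. It was HSP90AA1, a chaperone that with CDC37 folds CDK4, with 755 counts in the ethanol pool and 446 in the Nutlin-3 pool and a value of -0.71 (-0.89 to -0.54), lower in large and small columns alike (-0.81 and -0.35). Its paralogue HSP90AB1 had 412 and 363 counts and a value of -0.14 (-0.34 to 0.07), and CCNH of the activating kinase had 129 and 116.

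The genes that lie downstream of CDK4 through RB and E2F had values below 0 in 11 of 12 cases, 6 of them past the fold limit, with a median of -0.33. Of all filtered genes 12.4% were lower past that limit, or 3.82% of those at 50 CPM or more, and the median was -0.0017. The share of 3.82% does not cover the whole list, since CCNE2, 1 of the 6 lower genes, averaged 44.1 CPM and CCNE1 averaged 38.8. The 1 gene higher past the fold limit was CCNE1, with 38 and 64 counts, at 0.79 (0.20 to 1.42). CCND2, CDKN2C, CCNE1 and CCNE2 fall outside the rule for named genes and were singled out after their values were seen. E2F2 had 126 counts in the ethanol pool and 86 in the Nutlin-3 pool, a value of -0.50 (-0.92 to -0.10). TK1, which makes thymidine monophosphate, had 134 and 98, at -0.40 (-0.80 to -0.02). PCNA, the sliding clamp of replication, had 225 and 176, at -0.31 (-0.60 to -0.02), and MCM5 of the replicative helicase 111 and 82, at -0.39 (-0.82 to 0.03). PCNA is also a p53 target.

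For the partners of the other members, calls are to be read against 12.4% of filtered genes lower and 14.9% higher past the fold limit. Partner genes past the limit with a mean below 50 CPM were named after their values were seen. WDR4, the partner of METTL1, had 91 and 83 counts, TRMT6 125 and 111 and NSUN2 144 and 131. Of 8 tRNA methyltransferase genes 1 was lower, TRDMT1 with 72 and 53 counts, and 0 were higher. TUFM, the factor that TSFM recharges, had 191 and 178 counts, GFM1 126 and 114, GFM2 127 and 110 and MTRF1 72 and 74. Of these 8 mitochondrial translation factors 1 was lower, MTRF1L with 67 and 51 counts, and 0 were higher. EEF1A1, the substrate of EEF1AKMT3, had 379 and 372 counts, EEF1A2 125 and 125, METTL13 126 and 118 and EEF1AKMT2 109 and 90. None (0) of the 4 filtered genes of that list passed the limit.

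In the vitamin D pathway of CYP27B1, the table held 6 of the 8 listed genes, of which 4 passed the filter. Of these 4, 2 were lower past the fold limit, against 12.4% of all filtered genes, and 0 higher, against 14.9%. The receptor gene VDR had 1 count in each pool. DHCR7, which takes the vitamin D precursor to cholesterol, was lower with 107 and 73 counts, at -0.50 (-0.96 to -0.06), and RXRA with 40 and 26, at -0.57 (-1.35 to 0.17). RXRB had 75 and 85 counts and CYP2R1, which makes the substrate of CYP27B1, 75 and 63. VDR and RXRA were named after their values were seen.

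Beside OS9, HSPA5, the chaperone of the endoplasmic reticulum, had 163 and 136 counts, the lectin ERLEC1 108 and 96, and DERL2 106 and 115. Of 9 filtered degradation genes 0 were lower past the fold limit and 1 was higher. For this list and those below, the shares of all filtered genes were 12.4% lower and 14.9% higher. Of the tetraspanins 10 passed the filter and 0 passed the fold limit, with CD63 at 176 and 174 counts, CD9 at 88 and 101, TSPAN7 at 129 and 136 and TSPAN14 at 86 and 72. For CTDSP2, a phosphatase family that also acts with the repressor REST, RCOR1 of the REST complex had 124 and 119 counts, and 0 of 4 filtered genes of that list passed. Of the membrane-bound MARCH ligases 7 passed the filter, MARCH3 was lower with 33 and 19 counts and MARCH4 higher with 16 and 29. MARCH6 had 199 and 198 counts, MARCH7 150 and 140 and MARCH8 96 and 96. Of 4 filtered villin and gelsolin genes, the family of AVIL, SVIL was lower with 81 and 61 counts and VILL higher with 13 and 24, and FLII had 70 and 77. MARCH3, MARCH4 and VILL were likewise named after their values were seen.

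**Figure D5:**
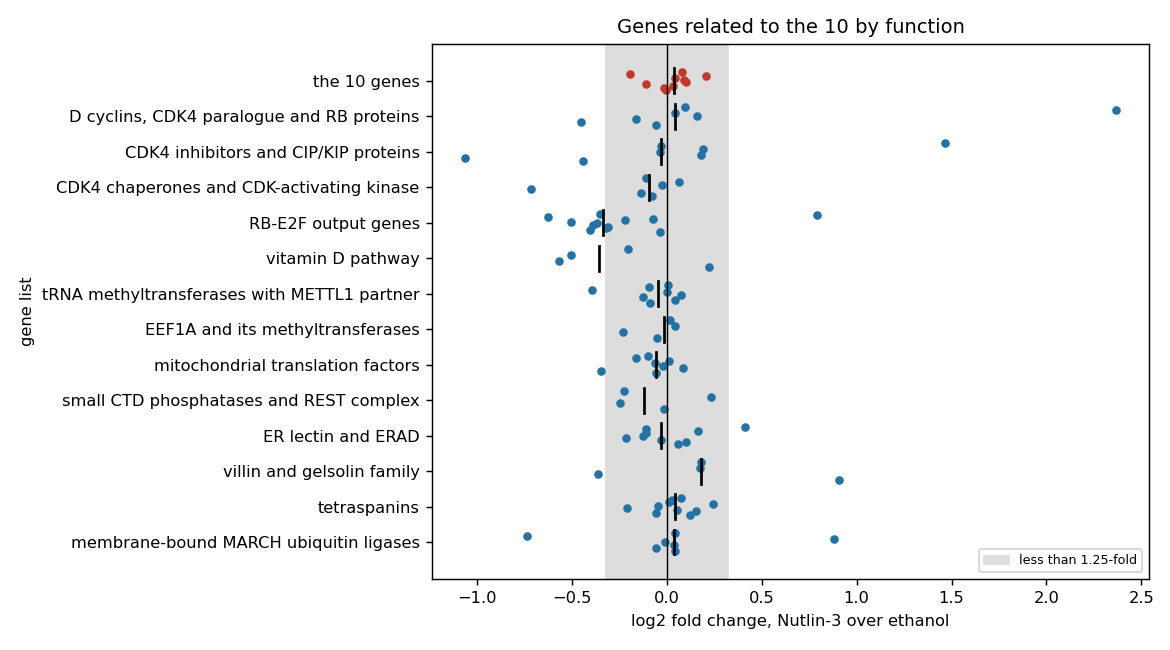
Log2 ratio of the Nutlin-3 to the ethanol pool (x axis) for filtered genes by functional list (y axis), with the 10 genes in red, listed genes in blue and the list median as a black bar. The shaded band lies within the fold limit of 0.32; all 10 genes lie inside it, CDKN1A lies at 1.46, and the RB-E2F median lies at -0.33.

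The identity of the cells was read from marker lists. All 9 neuroblastoma markers were detected, with summed levels of 2214 CPM in ethanol and 2225 in Nutlin-3. MYCN had 1140 and 877 counts, at -0.33 (-0.46 to -0.20), and CHGA, a granule protein of neuroendocrine cells, had 411 and 559, at 0.49 (0.30 to 0.68). The noradrenaline enzyme DBH had 104 and 131. Mesenchymal markers summed to 238 and 241 CPM, and 6 of 7 were in the table. TWIST1 made up most of that sum, with 210 and 230 counts. Of the 4 that passed the filter 2 were lower, FN1 with 37 and 19 counts and LUM with 34 and 13, and 1 was higher, COL1A1 with 29 and 47. These 3 were named after their values were seen. Of all filtered genes 12.4% were lower and 14.9% higher past the fold limit. Of 6 blood markers 2 were in the table, at 19.4 and 39.2 CPM in sum, with LYZ at 24 and 49 counts. LYZ made up most of that sum, and 1 gene does not show that blood cells were present. The part of the marker genes in the fold changes of the 10 genes was not tested.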

How the data were processed

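The deposited table holds raw counts per gene and column for 25693 Ensembl genes, 62 ERCC species and 500 columns, and per the labels' protocols the authors made the libraries with the SureCell WTA 3' kit on the ddSeq device. For aligner, build, annotation, strand, molecular tags and cell filter the entry is: not given in the sources used here. Columns named treated were taken as Nutlin-3, the word used in the labels, and untreated as ethanol, the other treatment. The 10 genes, the lists, the class limit of 4000 counts and the settings were chosen with earlier results of these data known. No doublet caller was run, and how the authors treated doublets was not stated. Human counts were summed over 250 columns per treatment and scaled with TMM factors of edgeR 4.0.16 in R 4.3.3. The edgeR filter with a minimum of 10 kept 14830 genes. Fold changes add 0.5 counts to each sum, with exact binomial intervals, and sums have exact Poisson intervals. The fold rule was tested on simulated Poisson counts, which lack the low ratio of variance to mean of many genes here. Python 3.11.15 and scipy 1.17.1 were used. Symbols and positions came from GENCODE release 29 (GRCh38), matched for 25602 genes, and need not be of the authors' build. MARCH9 is now named MARCHF9. Named genes were the 10 members, the coding genes within 5 of the segment, the 3 above and 3 below CDK4 in mean CPM, the 3 most like it, and per list the most abundant gene plus up to 3 with the largest change at 50 CPM or more; some genes of these rules and lists are not reported here. Alternatives were DESeq2 1.42.0 size factors, ERCC scaling, column classes, names in 1 treatment, no filter, 1 count added, 1.5-fold, counts per kilobase and depths of 350 or no thinning.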

Additional observations from a re-analysis of the deposited data

How the results depend on the processing

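No paired analysis was possible because column names hold neither library nor dilution, which is also why no test with edgeR or DESeq2, no replicate block and no setting without 1 of the libraries was run. Of 71 values of single members under the alternatives, 50 stayed within the first counting interval and 21 left it. DESeq2 size factors, large columns alone, no filter and 1 added count kept the members' median log2 fold change between 0.04 and 0.05 and the members past the fold limit at 0, as did a limit of 1.5-fold. ERCC scaling gave -0.43, with 9 members and 74 of 90 partner genes lower, against 16 lower and 6 higher on human counts. On the ERCC scale 73.6% of filtered genes were lower, against 12.4% lower and 14.9% higher on human counts. By construction the ERCC scale subtracts 1 constant. Small columns alone gave 1 member lower and 3 higher, and of 44 partner genes 16 lower and 10 higher. Of all genes filtered there, 27.1% were lower and 27.4% higher. Columns with a name in 1 treatment, 31 per pool and with 4 members past the filter, gave over all 10 members a median of -0.37, 6 lower and 3 higher, against 31.0% and 21.3% of 394 filtered genes, and, of 5 partner genes that passed, 2 lower and 1 higher. Without the filter 11 of 99 partner genes were higher, against 26.6% of all genes. For the members' median percentile, no filter gave 97.9 for ethanol and 98.3 for Nutlin-3, which adds low genes, and 83.5 and 85.7 per kilobase. The share of columns with CDK4 was 98.8% and 94.0% without thinning, and 28.2% and 24.2% at 350 counts. At 350 counts the order was reversed in the large columns, at 8.85% in ethanol and 14.2% in Nutlin-3. The small columns gave 45.3% and 33.9%, and the intervals overlapped in each class. The cause was not tested. With all annotated genes in place of coding ones, 2 flanking genes exceeded the median member, ATP23 and AC084033.3, in place of ATP23 and SLC16A7.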

Other observations

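Noncoding genes lie between the 10 genes and just beyond them. AC084033.3, on the strand opposite to ATP23 and within it, had 244 counts in the ethanol pool and 195 in the Nutlin-3 pool, which put it at the percentile 98.2 of filtered genes in ethanol, above ATP23 in ethanol (219) and below it in Nutlin-3 (206). Its log2 fold change was -0.28 (-0.56 to -0.00036). Without strand its reads and those of ATP23 cannot be told apart. AC025165.5, within TSFM and AVIL, had 120 and 112 counts, and AC025165.4, within AVIL, had 97 and 112. In the large columns alone AC025165.5 had 108 and 104, AC025165.4 had 94 and 104, and AVIL 110 and 112, against 113 for 1 count per column. AGAP2-AS1, which lies within AGAP2, had 92 and 95 counts, while AGAP2 had 53 and 82. LINC02388, 818 kb beyond the start coordinate of CDK4, had 94 and 64 counts and a log2 fold change of -0.51.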
